A study of Mus musculus with 8 samples.

Results

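Expression of 10 genes of cysteine supply, glutathione synthesis and thiol redox defence was followed across 4 mouse cell types, namely Cth, Cbs, Slc7a11, Gclc, Gclm, Gss, Gpx4, Txnrd1, Nqo1 and Hmox1. All 10 were found by symbol among the 24354 genes of the expression table. Cth was selected on its earlier difference between hybrid cells and EPSCs in these same libraries, so its values are given as a description with no test. The other 9 genes were chosen by their place in the pathway around Cth, with earlier results of these data known.

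Cysteine is the scarce building block of glutathione, the main small thiol of the cell. Cells obtain it by importing cystine, the oxidized dimer, or by transsulfuration, in which homocysteine is joined to serine and the product is then cleaved to cysteine. Glutathione is built from glutamate, cysteine and glycine in successive steps and is consumed by peroxidases and transferases. The transcription factor NRF2 (gene Nfe2l2) induces many of these genes under oxidative or electrophilic stress, and ATF4 induces cystine import and transsulfuration when amino acids run short. Pluripotent stem cells in culture are commonly given β-mercaptoethanol, a thiol that eases cystine uptake.

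RNA sequencing covered 8 libraries, 2 for each cell type. Embryonic stem cells (ESCs) were of the wild-type E14 line, grown in serum with LIF and β-mercaptoethanol on C3H mouse embryonic fibroblasts that had been inactivated with mitomycin C. Neural stem cells (NSCs) were derived from OG2+/- ROSA26+/- mice, whose transgenes are a ubiquitous lacZ and an Oct4 reporter (distal enhancer, GFP). The NSCs were grown on gelatin without feeders in N2 medium with EGF and bFGF. Wild-type extended pluripotent stem cells (EPSCs) came from C57BL/6 embryos and were kept on the same kind of feeders in N2B27 medium to which CHIR99021, minocycline, dimethindene maleate and human LIF were added. EPSC-NSC hybrid cells were made by fusing EPSCs and NSCs with polyethylene glycol, were picked as Oct4-GFP+ colonies, are labelled as tetraploid and were kept as EPSCs were. Parent means cell type below, since the library labels do not tie the sequenced EPSC line to the fusion. The labels give no animal ages. The N2B27 medium of EPSCs and hybrid cells also contains β-mercaptoethanol, at a lower concentration in the paper's methods than the ESC medium. β-mercaptoethanol is not among the listed components of the NSC medium. In the labels the EPSC libraries are marked p15 and the hybrid libraries p10. Each cell type was represented by 1 line, so line and cell type cannot be told apart in any contrast, nor can this label difference between hybrid cells and EPSCs, medium between EPSCs and ESCs, or medium and feeders in the contrasts with NSCs. The p-values measure the spread between libraries that the labels call independent samples without naming separate cultures.

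The deposited unit is FPKM, fragments per kilobase of transcript and per unit of library depth, which can be compared between genes because it is per length. Steps between low values placed the depth of a library between 22.0 and 32.6 times 1000000 fragments, at which 3 fragments on a transcript of 2 kb correspond to 0.0511 to 0.0757 FPKM, a limit that covers counting error only. The column sums were 415240 and 415412 in NSCs and 600674 to 653796 in the other 6 libraries. All 8 pluripotency markers were higher, and all 8 NSC markers lower, in hybrid cells than in NSCs, as their labels say. Summed over 10 fibroblast markers, the level was 13.1 and 14.3 FPKM in ESCs, 1.11 and 1.23 in NSCs, 83.2 and 84.6 in EPSCs, and 322 and 241 in hybrid cells 1 and 2. Of the 9 fibroblast markers that passed the low-value filter, 9 were higher in hybrid cells than in EPSCs. The paper treats Postn, which is in this list, as specific to EPSCs. It also reports the term collagen fibril organization as overexpressed in EPSCs and hybrid cells against ESCs. Which cells the RNA of these markers comes from was not tested, nor was the part that feeder RNA takes in the differences below. In bulk RNA, fewer cells of a type and less RNA per cell cannot be told apart.

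Cth, which encodes cystathionine γ-lyase, the enzyme that releases cysteine at the end of transsulfuration, had the widest range of the 10 genes as a ratio of its highest to its lowest group mean. It lies at chr3:157894248-157925081 (GRCm38). Cth was at 151 and 156 FPKM in ESCs, 69.3 and 68.1 FPKM in EPSCs, 12.1 and 9.28 FPKM in hybrid cells, and 1.49 and 1.81 FPKM in NSCs. No pair of cell types overlapped, and each step in the order ESCs, EPSCs, hybrid cells and NSCs was wider than the spread within a pair of libraries. The group mean of hybrid cells (10.7 ± 2.03, SD, n = 2) was 6.42 times below that of EPSCs (68.7 ± 0.848) and 6.51 times above that of NSCs (1.65 ± 0.226). The EPSC mean in turn was 2.24 times below the ESC mean (154 ± 3.55).

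Cbs, whose product cystathionine β-synthase catalyses the preceding step, had a much narrower range on that measure. It lies at chr17:31612623-31637233. Cbs was at 18.0 and 18.9 FPKM in ESCs, 12.7 and 11.1 FPKM in NSCs, 9.73 and 9.10 FPKM in EPSCs, and 7.99 and 6.03 FPKM in hybrid cells. The 4 cell types did not overlap, with hybrid cells below both of the cell types that were fused. Per length, the ratio of Cth to Cbs was 8.33 ± 0.1003 in ESCs and 7.30 ± 0.253 in EPSCs, fell to 1.53 ± 0.0136 in hybrid cells, and was 0.139 ± 0.0324 in NSCs (SD, n = 2). Cth thus exceeded Cbs in the 3 pluripotent cell types, by the least in hybrid cells, and Cbs exceeded Cth in NSCs.

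Slc7a11, the transport subunit of the cystine and glutamate exchanger xCT, was the least abundant of the 10 genes in every library. It lies at chr3:50364936-50499087. Slc7a11 was at 2.03 and 1.62 FPKM in EPSCs, 1.16 and 1.13 FPKM in ESCs, 0.805 and 0.758 FPKM in NSCs, and 0.431 and 0.403 FPKM in hybrid cells. The groups were again separate, and hybrid cells were again below both EPSCs and NSCs. All of these levels were above the limit of 3 fragments on a transcript of 2 kb.

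Glutamate-cysteine ligase, which carries out the rate-limiting step of glutathione synthesis, consists of a catalytic subunit (Gclc, chr9:77754535-77794489) and a modifier subunit (Gclm, chr3:122245487-122267215). Gclc was at 56.7 and 49.0 FPKM in EPSCs, 48.7 and 44.8 FPKM in hybrid cells, 30.6 and 31.3 FPKM in ESCs, and 25.5 and 25.4 FPKM in NSCs. Gclm was at 67.2 and 66.1 FPKM in EPSCs, 60.3 and 60.0 FPKM in hybrid cells, 49.9 and 50.5 FPKM in ESCs, and 22.6 and 23.6 FPKM in NSCs. Both subunits thus had the same order of cell types, with EPSCs and hybrid cells close to each other. The ratio of Gclc to Gclm was 0.616 ± 0.00371 in ESCs, 0.792 ± 0.0720 in EPSCs, 0.777 ± 0.0425 in hybrid cells and 1.10 ± 0.0400 in NSCs, so the modifier subunit was the more abundant in the 3 pluripotent cell types and not in NSCs.

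Gss encodes glutathione synthetase, which adds glycine to complete the tripeptide, and was the gene of the synthesis pathway that set hybrid cells apart. It lies at chr2:155563181-155592810. Gss was at 44.5 and 63.5 FPKM in hybrid cells, 14.01 and 20.05 FPKM in EPSCs, 13.4 and 13.3 FPKM in ESCs, and 10.9 and 11.1 FPKM in NSCs. Both hybrid libraries were above every other library, although libraries within both groups differed by 1.43 times. Per length, Gss was at 0.431 ± 0.00836 of Gclc in ESCs, 0.432 ± 0.00540 in NSCs and 0.328 ± 0.114 in EPSCs, and at 1.17 ± 0.355 in hybrid cells. Of the 2 hybrid libraries, the one with more Gss had the lower summed level of fibroblast markers. An order of 2 libraries cannot tell whether feeder RNA takes a part in Gss, which was not tested.

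Annotated genes within 100000 bases of Gss and of Cth were compared as well, as group means with no test. Trpc4ap was at 31.04 FPKM in hybrid cells against 26.97 FPKM in EPSCs, Ncoa6 at 10.5 against 9.78, Acss2 at 3.30 against 2.98, Myh7b at 1.71 against 0.862, and Ggt7 at 0.283 against 0.148, while Acss2os and Mir499 were listed at 0 in all libraries. Both neighbours of Cth were lower in hybrid cells, Ankrd13c at 22.6 FPKM against 29.9 FPKM in EPSCs and Srsf11 at 81.7 against 109. A lncRNA gene, Gssos2, overlaps Gss in the annotation and is not among the symbols of the table. The strand setting of the counting is not given in the sources used here, so reads of Gss and of an overlapping gene cannot be told apart. The same holds for Gclm with Gm46822 and Gm6061, and for Txnrd1 with Gm38560 and Eid3, of which Eid3 reached at most 3.25 FPKM.

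Gpx4, the selenium-containing peroxidase that reduces lipid hydroperoxides and protects against ferroptosis, was the most abundant of the 10 genes in all 4 cell types. It lies at chr10:80047166-80056439. Gpx4 was at 649 and 602 FPKM in ESCs, 517 and 607 FPKM in EPSCs, 278 and 415.5 FPKM in hybrid cells, and 155 and 158 FPKM in NSCs. ESCs and EPSCs overlapped, while hybrid cells lay between EPSCs and NSCs with libraries that differed by 1.497 times.

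Txnrd1, the cytosolic thioredoxin reductase and a further selenoprotein, was at 272 and 279 FPKM in EPSCs and 260 and 259 FPKM in hybrid cells, against 119 and 114 FPKM in ESCs and 82.1 and 84.8 FPKM in NSCs. It lies at chr10:82833951-82897724. Hybrid cells and EPSCs were thus near each other and well above the other 2 cell types. Per length, the Txnrd1 level of EPSCs was 3.30 times that of NSCs and 2.36 times that of ESCs.

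The remaining 2 genes, Nqo1 and Hmox1, are classic NRF2 targets on chromosome 8. Nqo1 (chr8:107388225-107403205), a quinone reductase, was at 54.8 and 62.7 FPKM in hybrid cells, 49.6 and 51.7 FPKM in EPSCs, 22.8 and 21.7 FPKM in ESCs, and 1.78 and 1.70 FPKM in NSCs. Hmox1 (chr8:75093618-75100593), the inducible heme oxygenase, was at 152 and 117 FPKM in hybrid cells, 140 and 142 FPKM in EPSCs, 119 and 118 FPKM in ESCs, and 25.8 and 26.6 FPKM in NSCs. NSCs were the lowest group for both genes. For Hmox1 the 2 hybrid libraries lay on either side of the EPSC libraries. The higher of the 2 hybrid libraries was the one with more fibroblast marker RNA. With 2 libraries this order cannot tell whether feeder RNA takes a part in Hmox1, which was not tested.

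**Figure D1:**
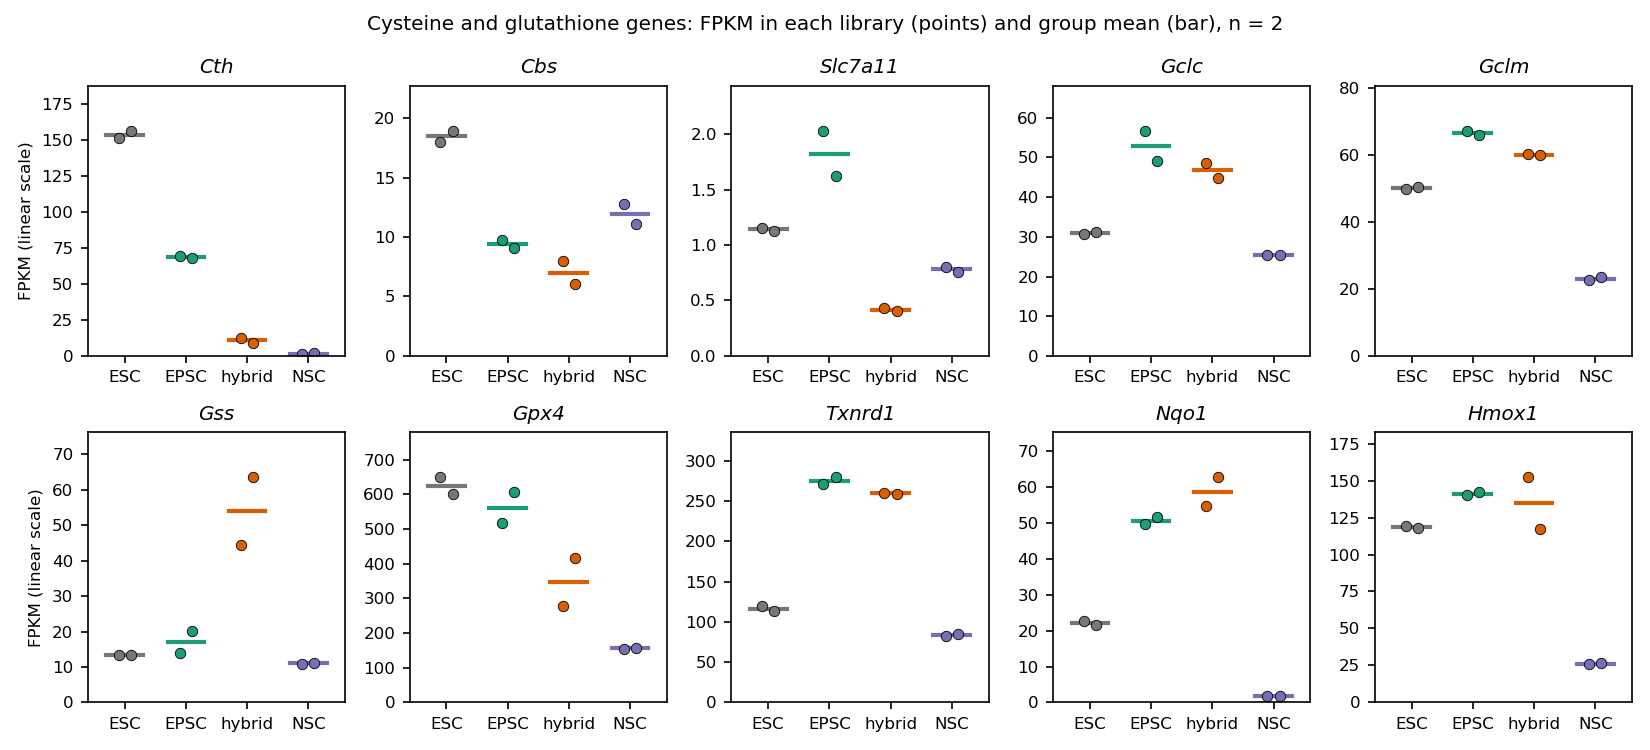
FPKM (linear axis from 0) of each of the 10 genes in the 8 libraries, with points for libraries and a bar for the mean of each group of 2. Cth steps down from ESCs to NSCs, Gss is highest in hybrid cells, at 44.5 and 63.5 FPKM, and Slc7a11 and Cbs are lowest in hybrid cells.

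Sequences upstream of the transcript starts were read for the genes whose promoter windows held the core letters of an ATF4 or NRF2 response element, because those are the factors named above. RefSeq windows (GRCm38.p6) from 250 bases before to 50 bases after a start were at hand for 7 of the 10 genes, in 12 windows, and not for Cth, Gclc and Hmox1. The ATF4 core was searched as TGATGNAA and the antioxidant response element core as TGACNNNGC, both on both strands. The ATF4 core was present in 3.97% of 32851 windows of the same length genome-wide and the antioxidant core in 12.4%. The stretches with matches follow, 5′ to 3′ on the strand of the gene, with the matched letters in capitals, which are the reverse complement of the core where the match is on the opposite strand.
Slc7a11, chr3:50443623-50443709, minus strand: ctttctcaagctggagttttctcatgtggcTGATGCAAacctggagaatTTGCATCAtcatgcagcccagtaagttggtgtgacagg
Gclm, chr3:122245393-122245461, plus strand: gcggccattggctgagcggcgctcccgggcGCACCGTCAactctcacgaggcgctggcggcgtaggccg
Txnrd1, chr10:82859084-82859152, plus strand: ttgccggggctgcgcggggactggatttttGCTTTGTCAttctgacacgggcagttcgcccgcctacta

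Slc7a11 was the gene with the ATF4 core, at positions -66 to -59 on the strand of the gene and again at -47 to -40 on the opposite strand, counted from the transcript start. Gclm held the antioxidant core at -134 to -126. Txnrd1 held it at -92 to -84 of a start that lies inside the annotated span of the gene, and its other 2 windows had no match. The stretch of Slc7a11 also lies inside the annotated gene span, and none of the 3 stretches overlapped an annotated exon of its gene. A match is a description of letters and not of binding, and the windows of Cbs, Gss, Gpx4 and Nqo1 without these letters say nothing of either factor.

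Hybrid cells were compared with EPSCs to ask how the fused cells differed from their pluripotent parent. By limma on log2(FPKM + 1), a scale that understates fold changes of low genes, Gss rose by 1.61 (SE 0.19, adjusted p = 0.000897), while Slc7a11 fell by 0.99 (SE 0.08, adjusted p = 0.000287), Gpx4 fell by 0.72 (SE 0.17, adjusted p = 0.0132), Cbs fell by 0.39 (SE 0.12, adjusted p = 0.0382) and Gclm fell by 0.15 (SE 0.05, adjusted p = 0.0446). On FPKM without the added 1, the Slc7a11 mean was 4.37 times lower in hybrid cells. Being low, Slc7a11 depends on the value added before the logarithm, and its difference was -1.89 with 0.1 added and -0.33 with 5 added, called in both cases. Of the 9 tested genes 1 was higher, where 22.5% of the 13239 tested genes were called higher, and 4 were lower, where 21.9% were called lower. The median difference of the 9 genes was -0.15 against 0 for all tested genes.

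The calls of Slc7a11 and Gss held under every alternative in which these genes were tested. The Cbs call was lost on leaving out any library but hybrid 1 (adjusted p 0.0642 to 0.136), with a difference of -0.21 without hybrid 2, and was also lost under quantile normalization (0.0578), with no low-value filter (0.0685) and when only the 2 groups were fitted (0.0962). The Gclm call was lost on leaving out either ESC, EPSC or hybrid library (0.0797 to 0.135), after scaling to an equal sum (0.0551), with no trend in the variance prior (0.0806), with the replicate block (0.0591) and when only the 2 groups were fitted (0.175). The Gpx4 call was lost without EPSC 2 (-0.60, adjusted p = 0.0667), and its difference was -0.43 (adjusted p = 0.0204) without hybrid 1, the library with the lower level. The other 4 genes were not called, with differences of -0.17 for Gclc (adjusted p = 0.114), -0.08 for Txnrd1 (0.204), 0.21 for Nqo1 (0.0639) and -0.08 for Hmox1 (0.585). Without EPSC 2, Gclc was called lower (-0.27, adjusted p = 0.0275). Without hybrid 1, Nqo1 was called higher (0.30, adjusted p = 0.0167) and Hmox1 lower (-0.27, adjusted p = 0.0104), and without hybrid 2 the Hmox1 difference turned to 0.11 (adjusted p = 0.155). Cth, with no test, differed by -2.58 (SE 0.12).

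By the rule of the study's methods, a group mean over 3 FPKM and a ratio of means over 3, hybrid cells and EPSCs differed in 0.866% of all 24354 genes. Cth and Gss were the 2 of the 10 genes past it, Cth being the gene that was selected on this contrast. Gss was just inside, at a ratio of 3.17, and was no longer past the rule without EPSC 1 or without hybrid 2. Slc7a11 had a larger ratio but a mean below the required level in both groups.

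Hybrid cells were compared with NSCs to ask how far expression had moved from the somatic parent. All 9 tested genes passed the test, 7 of them higher and 2 lower. Among all tested genes 44.5% were called higher and 42% lower in this contrast, and the median of the 9 differences was 1.34 against 0.06 for all tested genes. Nqo1 rose by 4.44 (SE 0.08, adjusted p = 4.16e-09) and its mean FPKM was 33.7 times that of NSCs. Hmox1 rose by 2.31 (SE 0.11, adjusted p = 4.29e-07), Gss by 2.17, Txnrd1 by 1.63, Gclm by 1.34, Gpx4 by 1.12 and Gclc by 0.85. Cbs fell by 0.70 (SE 0.12, adjusted p = 0.000996) and Slc7a11 fell by 0.33 (SE 0.08, adjusted p = 0.00703). By the study's rule, which 15.8% of genes passed here, Cth, Gss, Txnrd1, Nqo1 and Hmox1 differed, all 5 higher in hybrid cells, and Txnrd1 was no longer past it after scaling to an equal sum or quantile normalization. With 0.1 or 5 added in place of 1, the Slc7a11 difference was -0.77 or -0.09, still called. Cth differed by 2.14 on the log2 scale, and by 1.24 with 5 added.

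EPSCs were compared with NSCs to give the distance between the fused cell types, a contrast that shares its NSC libraries with the one before. Of the 9 tested genes 8 were higher in EPSCs, where 45.2% of all tested genes were, and 1 was lower, where 41% were. Nqo1 rose by 4.24 (SE 0.08, adjusted p = 5.03e-09), Hmox1 by 2.38, Gpx4 by 1.84, Txnrd1 by 1.71, Gclm by 1.49, Gclc by 1.02, Slc7a11 by 0.66 and Gss by 0.56. The Gss call (adjusted p = 0.0245) was lost without NSC 1, NSC 2 or EPSC 2 (adjusted p 0.0937 to 0.15), and the difference was 0.32 without EPSC 2. Cbs fell by 0.31 (adjusted p = 0.0466), a call that was lost on leaving out any ESC, NSC or EPSC library (0.0589 to 0.248), with no low-value filter (0.0743) and under quantile normalization (-0.12, adjusted p = 0.401). Slc7a11 was at 1.12 with 0.1 added and 0.24 with 5 added, called in both cases. Past the study's rule were 15.6% of genes and Cth, Gpx4, Txnrd1, Nqo1 and Hmox1, with a ratio of 41.8 for Cth.

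Contrasts with NSCs depend on how libraries are scaled, since the NSC column sums were the lowest. When every library was scaled to a sum of 1000000, the median difference of all tested genes moved to -0.50 for hybrid cells and -0.48 for EPSCs, and higher calls made up 34.5% and 35% of all calls in place of 51.5% and 52.4%. Of the 9 genes, the direction against NSCs changed in this setting for Gss in EPSCs, which became -0.01 (adjusted p = 0.974), and for no other gene. Other values moved by more than 1.5 times and stayed called. In EPSCs Cbs became -0.91, Slc7a11 0.42, Gclc 0.43, Gclm 0.90 and Txnrd1 1.10. In hybrid cells Cbs became -1.32, Slc7a11 -0.80, Gclc 0.25, Gclm 0.75, Txnrd1 1.01 and Gpx4 0.50, and Gpx4 was at 0.51 under quantile normalization. The fibroblast markers, the medium and the feeders also differ between NSCs and the other cell types, and their part in these differences was not tested.

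EPSCs were compared with ESCs as the 2 pluripotent states. Txnrd1 rose by 1.23 (SE 0.05, adjusted p = 3.47e-06), Nqo1 by 1.15 (SE 0.08, adjusted p = 2.71e-05), Gclc by 0.75 (adjusted p = 0.000177), Gclm by 0.40 (adjusted p = 0.000358) and Slc7a11 by 0.39 (adjusted p = 0.00523). Cbs fell by 0.90 (SE 0.12, adjusted p = 0.000649), and Cth, with no test, differed by -1.15. Of the 9 tested genes, 5 were thus higher, where 33.7% of all tested genes were, and 1 was lower, where 27.3% were. These 6 calls held under every alternative in which the gene was tested, while the Slc7a11 difference was 0.62 with 0.1 added and 0.15 with 5 added.

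Gss (0.31, adjusted p = 0.198), Gpx4 (-0.16, adjusted p = 0.458) and Hmox1 (0.25, adjusted p = 0.0818) were not called between EPSCs and ESCs. Gss was called higher without EPSC 1 (0.55, adjusted p = 0.045), and Hmox1 was called higher without hybrid 1 or hybrid 2, which enter only through the shared estimate of the spread (adjusted p = 0.00287 and 0.00282), and also when only EPSCs and ESCs were fitted (0.25, adjusted p = 0.00697). No gene of the 10 passed the study's rule, which 2.57% of all genes passed. The paper's results give thresholds of 2 for FPKM and fold change beside its counts. At those thresholds Cth, Txnrd1 and Nqo1 passed. Genes on chromosome 8, which holds Nqo1 and Hmox1, had a median difference of -0.26 between EPSCs and ESCs, while the other chromosome medians reached from -0.01 to 0.19. This was seen after the data were examined, and whether copy number takes a part was not tested.

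**Figure D2:**
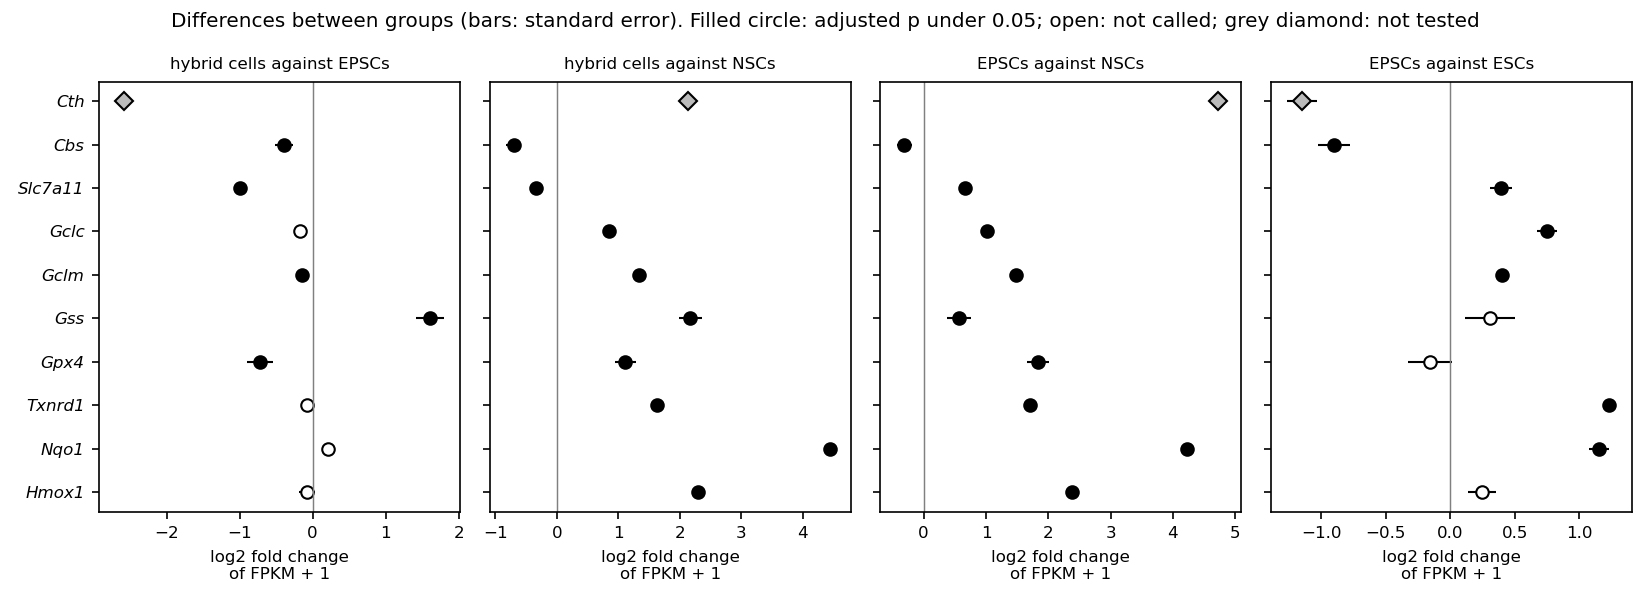
Log2 fold change of FPKM + 1 for the 10 genes in the 4 comparisons, with the standard error from limma as a bar. Cth (grey diamond) was not tested. Against EPSCs, hybrid cells reach from -2.58 for Cth over -0.99 for Slc7a11 and -0.72 for Gpx4 to 1.61 for Gss. Against NSCs, 7 of the 9 tested genes lie to the right of 0 in hybrid cells and 8 in EPSCs, where Gss did not once libraries were scaled to an equal sum.

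The level of each gene in hybrid cells was then placed between its 2 parents, with 0 for the NSC mean and 1 for the EPSC mean on the log2(FPKM + 1) scale. Over the 3809 genes that differed between EPSCs and NSCs by the study's rule, the median position was 0.966 and the quartiles were 0.846 and 1.06. Nqo1 (1.05), Hmox1 (0.967), Txnrd1 (0.951) and Gclm (0.902) lay within these quartiles, Gclc (0.833) was just below them, and Gpx4 was at 0.608. Gss was at 3.85, Cbs at 2.26 and Slc7a11 at -0.50. These positions divide by small differences between EPSCs and NSCs, of 0.56 for Gss, -0.31 for Cbs and 0.66 for Slc7a11. With equal column sums the Gss difference became -0.0085, so its position is unstable. On FPKM without logarithm, Gss was at 7.15, Cbs at 1.96, Slc7a11 at -0.35 and Gpx4 at 0.47. Gss, Cbs, Slc7a11, Gclc and Gclm did not themselves pass the rule that defines the quartiles. Cth was at 0.453, and at 0.135 when FPKM were used without logarithm. Of the 1631 genes that were higher in EPSCs by that rule, 49 (3%) had a position below 0.5, and Cth ranked 38 from the lowest. Since Cth was selected on its difference from EPSCs, this rank is a description.

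For 4 of the 10 genes the hybrid libraries lay outside the range of both parents. Gss and Nqo1 were above all EPSC and NSC libraries, and Cbs and Slc7a11 were below all of them. Over the 13239 tested genes 18.7% were above and 16.2% below both parents in this way. The 2 genes above and 2 below of 10 are close to these shares.

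Genes of the surrounding pathways were counted from 12 lists, with the 10 genes above left out. These lists were drawn up from general knowledge with earlier results of these data known, and some genes stand in more than 1 list. Between hybrid cells and EPSCs the most one-sided counts were in ATF4 targets, of which limma called 0 of 19 higher and 15 lower, where 22.5% and 21.9% of all tested genes were (at unadjusted p under 0.05, 1 higher and 15 lower). The median of the list was -0.99, and the list includes Atf4 itself, which is among the 15. The number called was 15 to 17 over all alternatives. Nupr1, a stress-induced chromatin protein, fell by 2.22 (SE 0.28), Chac1, which degrades glutathione, fell by 2.05 (SE 0.12), Mthfd2, a mitochondrial folate enzyme, fell by 1.87 (SE 0.15), and Atf5, a related transcription factor, fell by 1.83 (SE 0.11). Chac1 was at 23.7 and 22.7 FPKM in EPSCs, 4.37 and 5.38 FPKM in hybrid cells, 42.9 and 40.2 FPKM in ESCs, and 1.56 and 2.11 FPKM in NSCs, which is the order of cell types that Cth also had. Atf4 itself was at 556 and 524 FPKM in EPSCs and 250 and 276 FPKM in hybrid cells. In ESCs Atf4 was at 159 and 162 FPKM and in NSCs at 109 and 115 FPKM, so it was not highest in ESCs as Cth was. The Atf5 mean was lower in hybrid cells (13.7 FPKM) than in NSCs (17.1 FPKM), so the order of Cth was not shared by the whole list.

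Against NSCs, 18 of 19 ATF4 targets were higher and 1 lower in EPSCs, where 45.2% and 41% of all tested genes were, and 14 were higher and 5 lower in hybrid cells, where 44.5% and 42% were. With equal column sums these counts became 14 and 3, and 11 and 6. In that setting higher calls made up 35% of all calls in EPSCs and 34.5% in hybrid cells. In EPSCs against ESCs 8 of 19 were higher and 4 lower, where 33.7% and 27.3% of all tested genes were, so that this list stood near the background. In that contrast Atf4 rose by 1.74 (SE 0.06) while Cebpb, a partner transcription factor, fell by 2.01 (SE 0.17).

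Transporters of cysteine, cystine, glutamate and glycine gave 1 higher and 5 lower of 7 in hybrid cells against EPSCs, where 22.5% and 21.9% of all tested genes were. Slc6a9, a glycine transporter, fell by 1.75 (SE 0.11), Slc1a5 and Slc1a4, exchangers of neutral amino acids, fell by 1.59 (SE 0.08) and 1.26 (SE 0.17), and Slc1a3, a glutamate transporter of glia, fell by 0.85 (SE 0.09). Slc1a5 was at 102 and 104 FPKM in EPSCs, 30.6 and 36.6 FPKM in hybrid cells, 49.5 and 48.0 FPKM in ESCs, and 10.93 and 10.96 FPKM in NSCs. Slc1a3 was at 404 and 431 FPKM in NSCs and at most 7.21 FPKM elsewhere, with 3.47 and 3.09 FPKM in hybrid cells.

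Other genes of glutathione synthesis and turnover gave 1 higher and 6 lower of 13 in hybrid cells against EPSCs, where 22.5% and 21.9% of all tested genes were called, shares that also stand beside the other counts of this contrast here. After Chac1, the largest decreases were those of Ggct, a γ-glutamylcyclotransferase, which fell by 0.86 (SE 0.16), the oxoprolinase Oplah, which fell by 0.60 (SE 0.07), and the glyoxalase Glo1, which fell by 0.46 (SE 0.09). The total of 7 calls became 4 without ESC 2 or EPSC 2 or when only the 2 groups compared were fitted. Genes of the methionine cycle gave 2 higher and 4 lower of 9, with a fall of 1.03 (SE 0.16) for the glycine methyltransferase Gnmt and a rise of 0.54 (SE 0.07) for the methionine synthase reductase Mtrr. In EPSCs against ESCs 8 of these 9 were called higher and 0 lower by limma (at unadjusted p under 0.05, 8 and 0), where 33.7% and 27.3% of all tested genes were, led by Mtap (1.43, SE 0.09) and Ahcy (1.40, SE 0.10), which recycle by-products of methylation and polyamine synthesis. That count became 5 without either ESC library. Genes of cysteine catabolism were called in no clear direction, at 3 higher and 4 lower of 10 in hybrid cells against EPSCs. That total fell to as low as 1 over all alternatives.

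All 6 tested glutathione peroxidases beside Gpx4 were called higher in EPSCs than in ESCs, where 33.7% of all tested genes were, whereas Gpx4 was not called. Gpx2, an epithelial form, was at 236 and 217 FPKM in EPSCs, 124 and 139 FPKM in hybrid cells and 1.73 and 1.96 FPKM in ESCs, and was listed at 0 in both NSC libraries. Gpx1, the widely expressed cytosolic form, was at 648 and 628 FPKM in EPSCs, 807 and 826 FPKM in hybrid cells, 262 and 256 FPKM in ESCs, and 57.0 and 54.6 FPKM in NSCs. Gpx6 rose by 2.22 (SE 0.10) and Gpx8 by 1.57 (SE 0.12) between ESCs and EPSCs. In hybrid cells against EPSCs 3 of the 6 were higher and 2 lower, where 22.5% and 21.9% of all tested genes were, with Gpx3, the secreted form, up by 1.11 (SE 0.12) and Gpx2 down by 0.78 on the log2 scale. Of 9 tested fibroblast markers 7 were called higher in EPSCs than in ESCs and 9 in hybrid cells than in EPSCs, and whether feeder RNA takes a part in Gpx3 and Gpx8 was not tested.

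Genes of the NRF2 pathway were counted beside Txnrd1, Nqo1, Gclc and Gclm. The list holds NRF2 targets and also regulators that act against NRF2, such as Bach1 and Cul3, so its counts are not of targets alone. In EPSCs against ESCs, limma called 22 of 28 higher and 2 lower, where 33.7% and 27.3% of all tested genes were, and the median difference was 0.41, with 0.04 for all genes. Ftl1, the light chain of the iron store ferritin, rose by 2.31 (SE 0.07), from 1250 and 1247 FPKM in ESCs to 6236 and 6183 FPKM in EPSCs. Ephx1, an epoxide hydrolase, rose by 1.24 (SE 0.15), Ugdh by 1.11 (SE 0.07), and the glutathione reductase Gsr by 1.08 (SE 0.06). In hybrid cells against EPSCs 11 of the 28 were higher and 2 lower, where 22.5% and 21.9% of all tested genes were, led by the carbonyl reductase Cbr3, which was at 24.4 and 22.6 FPKM in EPSCs and at 59.2 and 54.8 FPKM in hybrid cells. Nfe2l2 was at 24.2 and 26.1 FPKM in ESCs and 40.6 and 43.9 FPKM in EPSCs. It was at 54.4 and 55.4 FPKM in hybrid cells and 52.6 and 52.9 FPKM in NSCs. Before any rescaling, hybrid cells and NSCs were close (0.06, adjusted p = 0.401 by limma). Whether the Nfe2l2 level takes a part in the levels of these genes was not tested.

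The remaining lists in hybrid cells against EPSCs stand beside shares of 22.5% higher and 21.9% lower among all tested genes. Thioredoxin, peroxiredoxin and glutaredoxin genes gave 8 higher and 4 lower of 18. Txnip, which binds and inhibits thioredoxin, fell by 1.90 (SE 0.19), while Glrx rose by 1.10 (SE 0.18) and the mitochondrial reductase Txnrd2 by 0.81 (SE 0.10). Glutathione S-transferases gave 7 higher and 8 lower of 21, with Gsto1 up by 1.24 (SE 0.22) and Gstm3 down by 1.43 on the log2 scale. Heme synthesis and breakdown gave 7 higher and 2 lower of 11, with Alad up by 0.87 (SE 0.11) and Fech, the last enzyme of heme synthesis, down by 0.47. Ferroptosis regulators beside Gpx4 gave 5 higher and 2 lower of 15, led by Gch1 at 0.62 (SE 0.12). Genes of selenoprotein synthesis gave 1 higher and 2 lower of 10, with Scly, a selenocysteine lyase, at 0.72 (SE 0.13).

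**Figure D3:**
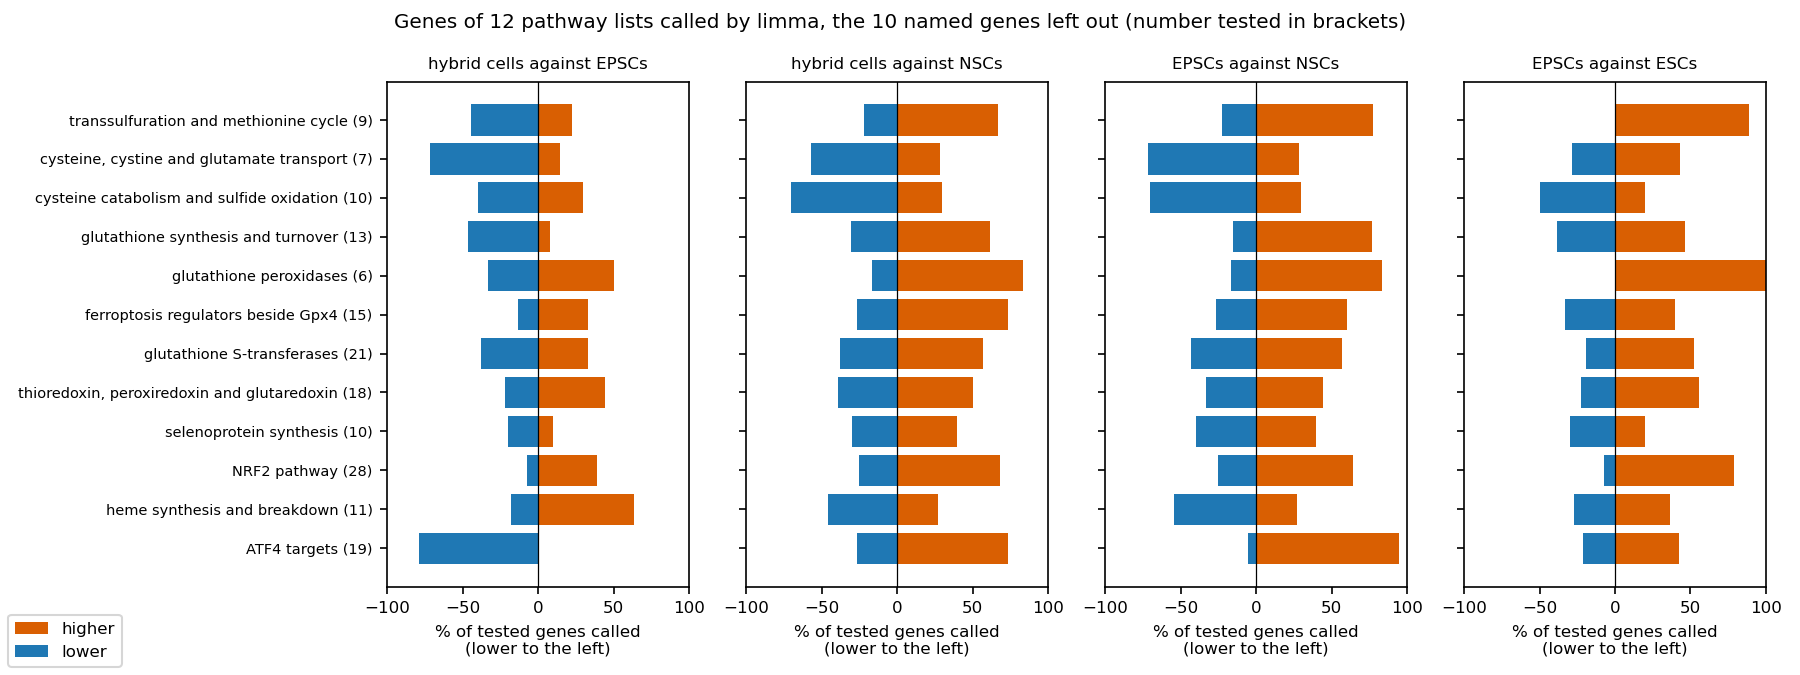
Percentage of the tested genes of 12 lists that limma called higher (to the right) or lower (to the left) in each comparison, the 10 genes of the report left out, with the number tested in brackets. ATF4 targets lie to the left in hybrid cells against EPSCs (15 lower of 19). Glutathione peroxidases (6 of 6) and NRF2 pathway genes, targets and regulators together (22 of 28), lie mostly to the right in EPSCs against ESCs. With libraries scaled to an equal sum, the counts of glutathione peroxidases against NSCs stay the same. Those of thioredoxin genes turn from more higher to more lower in both contrasts with NSCs, and those of selenoprotein genes in hybrid cells. These turns are not particular to the lists, since this scaling moves the median of all tested genes to -0.50 in hybrid cells and -0.48 in EPSCs. The list medians are then -0.58 and -0.55 for thioredoxin genes in hybrid cells and EPSCs, and -0.56 for selenoprotein genes in hybrid cells.

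Genes with a pattern like that of Cth were sought by Pearson's r of log2(FPKM + 1) over the 8 libraries, which fall into 4 pairs. The 5 closest were Kctd9 and Uba3 (each r = 0.997), Krt19 and Brd2 (each r = 0.996) and Krt17 (r = 0.993), given without a test. Brd2 had a narrower range than Cth, from 144 ± 3.61 FPKM in ESCs over 125 ± 4.39 in EPSCs and 98.5 ± 5.61 in hybrid cells to 77.9 ± 0.0635 in NSCs (SD, n = 2). Krt17 was at 12.03 ± 0.472, 6.16 ± 1.12 and 2.06 ± 0.436 FPKM in ESCs, EPSCs and hybrid cells, and was listed at 0 in NSCs. With libraries scaled to an equal sum, 1 of the 5 remained among the 5 closest. Among the 10 genes themselves, over the same 8 libraries, Gclm went with Nqo1 (r = 0.988) and Hmox1 (r = 0.983), and Gclc with Txnrd1 (r = 0.982). Nqo1 went with Hmox1 (r = 0.969) and Cth with Gpx4 (r = 0.950), while Cbs and Gss ran opposite (r = -0.770). These are the extremes of all pairs of the 10 genes, most of which were lowest in NSCs, and are a description. They were not recomputed with libraries scaled to an equal sum.

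Differences between hybrid cells and EPSCs were also set against the chromosome on which each gene lies, a view chosen after the values were seen. Over 12586 tested genes with a position, the median log2 difference was 0.122 to 0.208 on 6 chromosomes, -0.190 to -0.110 on 11, and 0.055 to 0.087 on the other 3. Between the 2 libraries of 1 cell type the chromosome medians ran from -0.042 to 0.009 in hybrid cells and from -0.037 to 0 in EPSCs. Of the 10 genes, 8 lie on the 11 chromosomes with low medians, which hold 52.8% of the positioned genes, Gss on chromosome 2 with a median of 0.17 and Gclc on chromosome 9 with 0.06. Relative to its chromosome, Gclm differed by 0.01, Txnrd1 and Hmox1 each by 0.06, Nqo1 by 0.34, Cbs by -0.27, Gclc by -0.23, Gpx4 by -0.57, Slc7a11 by -0.84, Gss by 1.44 and Cth by -2.43. The small Gclm difference was thus close to the median of its chromosome (-0.16), and those of Gss, Slc7a11, Gpx4 and Cth were several times larger than theirs. The hybrid cells are labelled tetraploid, and whether copy number takes a part in these medians was not tested.

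**Figure D4:**
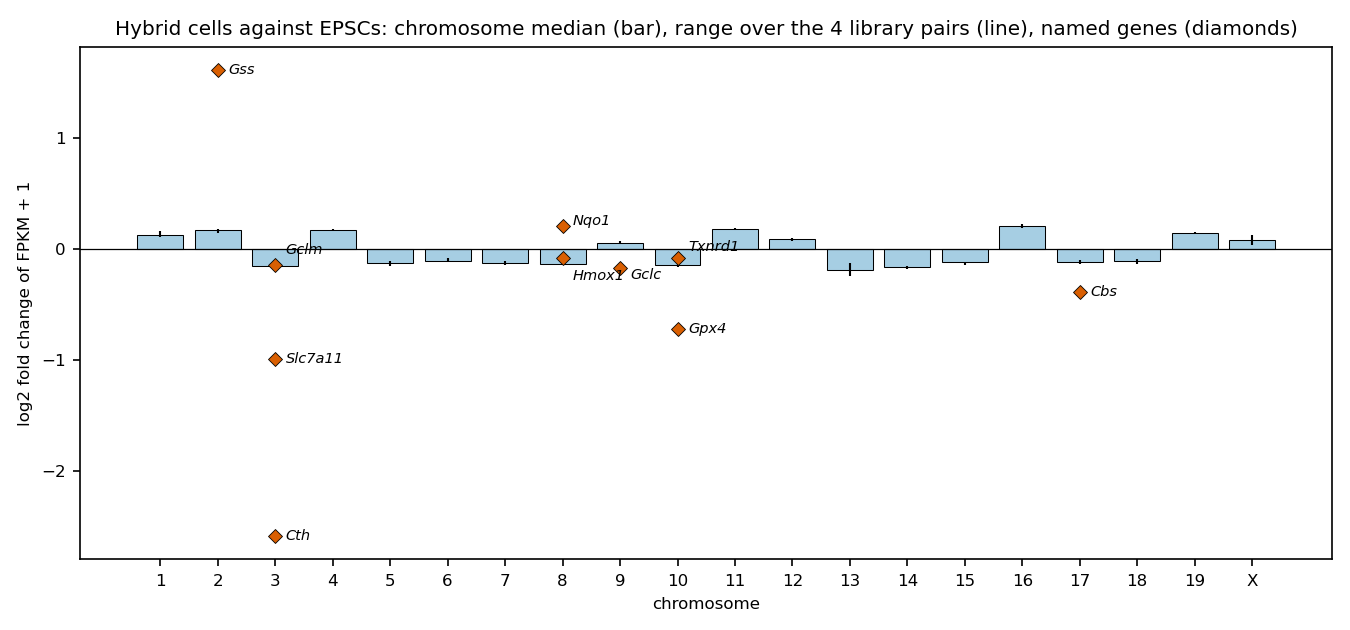
Median log2 fold change of FPKM + 1 of hybrid cells against EPSCs for each chromosome (bars), with the range over the 4 pairs of 1 hybrid and 1 EPSC library (lines) and the 10 genes (diamonds). Chromosome medians fall on either side of 0 within -0.19 and 0.21, Gclm, Txnrd1 and Hmox1 sit near theirs, and Cth and Gss lie far outside.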

How the data were processed

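RNA-seq of 8 libraries was analysed. The authors prepared stranded poly-A libraries, and, per the submitters' processing notes, aligned reads to mm10 with STAR 2.7.9a and used Cuffnorm of Cufflinks 2.2.1. They deposited FPKM per gene and library, unpooled. Annotation, strand setting and library normalization of Cuffnorm are not given in the sources used here. Columns were mapped by label, and 0 belonged to other samples.

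The 10 genes and all lists were chosen with earlier results of these data known. limma 3.58.1 (R 4.3.3) was fitted to log2(FPKM + 1) with a mean-variance trend and the 4 groups in 1 fit (4 residual and 3.25 prior degrees of freedom). It was two-sided, over 13239 genes with a mean of at least 1 FPKM in at least 1 group, with Benjamini-Hochberg adjustment and calls at adjusted p under 0.05. An exact permutation test of 2 against 2 libraries cannot go below 0.333 and was not used. From each list, at most 4 called genes with the largest differences are named by rule. Atf4, Nfe2l2, Gpx2 in NSCs and neighbours of Gss were added after their values were seen. The fit was also run on simulated data, and no call or count here rests on that run. Depth was derived from steps of low FPKM values of 2247 genes with 1 transcript over 1500 bases, with an assumed fragment length of 200. Positions and promoters are from RefSeq (GRCm38.p6), read with Python 3.11.15. Replicate numbers in the labels were not taken as pairs, since no source ties them. Alternatives covered pseudocount, filter, scaling, fit and left-out libraries.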

Additional observations from a re-analysis of the deposited data

How the results depend on the processing

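Of 675 log2 differences recomputed for single genes, 620 kept their direction and side of the threshold (for Cth, moved by less than its error), and 2 turned in sign. Gss in EPSCs against NSCs became -0.0085 (adjusted p = 0.974) when libraries were scaled to a sum of 1000000, and Hmox1 in hybrid cells against EPSCs ran from -0.27 to 0.11 on leaving out 1 library. Of the 9 tested genes, 5 were called in hybrid cells against EPSCs, 3 when only those 2 groups were fitted, and 3 to 6 on leaving out 1 library, where a lone library is assumed to vary like the other groups. By the study's rule, 2 genes were counted in that contrast and 1 to 2 on leaving out 1 library. Thresholds of 2 gave 3 genes in place of 0 between EPSCs and ESCs (Cth, Txnrd1 and Nqo1), and in EPSCs against NSCs scaling and quantile normalization each gave 3 in place of 5, without Gpx4 and Txnrd1, and in hybrid cells against NSCs 4 in place of 5, without Txnrd1. With the replicate block, 4 of the 9 were called in hybrid cells against EPSCs, Gclm being lost (adjusted p = 0.0591), and 6060 genes in all in place of 5881. No source pairs the libraries, and deviations of same-numbered libraries correlated at 0.28 in that contrast and at -0.0169 to 0.0693 in the others. Without the low-value filter, Cbs was lost in hybrid cells against EPSCs (adjusted p = 0.0685) and in EPSCs against NSCs (0.0743), and Gss in EPSCs against NSCs (0.0502). Between hybrid cells and EPSCs 5881 genes were called, and 3388 when only these groups were fitted. A mean of at least 3 FPKM left Slc7a11 untested. The causes were not tested. Depth limits Slc7a11 most, at 0.403 to 2.03 FPKM.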
